A study of Mus musculus with 9 samples.

Results

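The glucocorticoid receptor gene Nr3c1, 7 genes that glucocorticoids are known to induce (Fkbp5, Tsc22d3, Zbtb16, Cebpd, Klf9, Sgk1 and Cdkn1a) and the metallothionein genes Mt1 and Mt2 were examined in newborn skeletal muscle. The 10 genes were chosen by symbol from the 55471 gene IDs of the deposited count table, and each symbol matched 1 ID. Total RNA of the gastrocnemius, a calf muscle, was sequenced from 5 Shank3Δ11(-/-) mice (KO1 to KO5) and 4 Shank3(+/+) mice (WT1 to WT4), all labelled C57BL/6 and taken at postnatal day 0 to 1, with 1 library per mouse. The Shank3Δ11 allele removes exon 11 of the scaffold gene Shank3 and lowers the long SHANK3 isoforms, while some isoforms remain. No mouse received a hormone, a metal or any other treatment that the sources describe. The genotypes were compared in the 7 mice of the study's own analysis, 3 Shank3Δ11(-/-) mice (KO1, KO3, KO5) and all 4 Shank3(+/+) mice, and then in all 9, since KO2 and KO4 had been left out by the study. For leaving them out, the study named too few total reads and proposes a lower library quality. In the deposited table, library totals ranged from 26444372 counts (KO5) to 40471957 counts (KO4) over the 9 mice, and KO2 had 28211941. The 10 genes had between 157 and 11871 counts in a mouse.

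Glucocorticoids enter the cell and bind the receptor NR3C1, which is held ready in the cytoplasm by HSP90 and its co-chaperones. The bound receptor moves into the nucleus and binds glucocorticoid response elements, palindromes of a short site, near its target genes. FKBP5, a target, is itself an HSP90 co-chaperone that lowers the affinity of the receptor for its hormone and so closes a feedback loop. Metallothioneins are small cysteine-rich proteins that bind zinc and copper. Their genes are switched on by the zinc sensor MTF1 through metal response elements and also by glucocorticoids. In skeletal muscle, glucocorticoids are known for promoting protein breakdown and altering fuel use.

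The promoter windows that follow are shown because they hold some of the letters through which these classes of gene are known to be read. They are RefSeq sequences of the build GRCm38.p6, 5′ to 3′ on the strand of the gene, and cover the 250 bases before a RefSeq start site. Windows were found for 7 of the 10 genes, 15 windows in all. The metallothionein genes lie next to each other on chromosome 8. In their windows, capitals mark the core of the metal response element, TGCACNC or TGCGCNC. It was searched on both strands, and matches that overlap were each counted.
Mt1, chr8:94178839-94179088, plus strand: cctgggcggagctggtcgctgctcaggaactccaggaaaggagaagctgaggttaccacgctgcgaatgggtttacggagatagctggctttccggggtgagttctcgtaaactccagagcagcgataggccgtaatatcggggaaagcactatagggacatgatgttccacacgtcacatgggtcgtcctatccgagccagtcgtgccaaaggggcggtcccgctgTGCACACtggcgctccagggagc
Mt2, chr8:94172368-94172617, plus strand: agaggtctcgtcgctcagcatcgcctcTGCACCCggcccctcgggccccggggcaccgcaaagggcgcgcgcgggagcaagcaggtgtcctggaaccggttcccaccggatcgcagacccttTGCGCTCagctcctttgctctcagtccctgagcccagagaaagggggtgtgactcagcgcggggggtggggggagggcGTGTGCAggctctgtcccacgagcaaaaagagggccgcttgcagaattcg
The Mt1 window held 1 core, 23 to 17 bases before the start. The Mt2 window held 3 cores, which began 223, 128 and 50 bases before the start. Each gene had 1 window here, and bases after its start were not searched, so cores outside the windows are not counted. At least 1 core was present in 21.4% of all 32851 windows, and at least 3 cores in 1.26%. The glucocorticoid response element was searched as its full palindrome, the site AGAACA followed after 3 bases of any kind by its reverse complement TGTTCT, which was found in 3 of the 32851 windows (0.00913%). The fifth of 6 windows of Sgk1 was among them, with the element from 21993701 to 21993715 on chromosome 10. Capitals mark the 6-base site AGAACA or its reverse complement, 2 copies of which form the palindrome.
Sgk1, chr10:21993640-21993889, plus strand: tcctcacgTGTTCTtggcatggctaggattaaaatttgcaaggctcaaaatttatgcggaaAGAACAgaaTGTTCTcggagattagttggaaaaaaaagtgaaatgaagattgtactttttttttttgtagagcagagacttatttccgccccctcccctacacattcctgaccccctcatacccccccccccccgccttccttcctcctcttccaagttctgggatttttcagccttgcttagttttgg
The 6-base site alone was found in 16.1% of all windows, and among these genes only in windows of Sgk1 and Tsc22d3. These matches describe letters in the windows and were not tested as binding sites.

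In neither fit did a glucocorticoid gene or a metallothionein gene pass the test between genotypes. Their levels varied widely from mouse to mouse within each genotype, and several varied together. Levels are given as CPM, counts scaled to the library size after TMM normalization over the 9 mice. Shank3 itself had between 25.7 CPM (KO2) and 38.5 CPM (WT4), and a count over the whole gene does not check the deletion of exon 11. A list of 12 skeletal muscle markers summed to between 64312 and 72642 CPM in the 9 mice.

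WT4, KO5, KO1 and KO4 stood apart in markers of other tissues. Of 8 liver markers 7 were found in the table, and they summed to 46.3 CPM in WT4 and at most 0.683 CPM in any other mouse. Among them albumin (Alb) had 20.5 CPM in WT4 and at most 0.569 CPM elsewhere, and Serpina1a was at 0 in the other 8 mice. In WT4 the 11 epidermis markers summed to 107 CPM, against 19.5 to 70.8 CPM in the others. In KO5 the 12 adipocyte markers summed to 2732 CPM, against 1292 to 1689 CPM, and the 10 Schwann cell markers to 764 CPM, against 334 to 465 CPM. In KO1 the 10 erythroid markers summed to 5780 CPM, against 1227 to 2194 CPM. In KO4 the 12 cartilage and bone markers summed to 316 CPM, against 46.0 to 152 CPM, the 8 tendon markers to 1215 CPM, against 543 to 828 CPM, and the 10 fibroblast markers to 31816 CPM, against 15494 to 25268 CPM. WT4 had the highest level of Fkbp5, Zbtb16, Cebpd, Cdkn1a, Mt1 and Mt2. KO5 had the lowest level of Fkbp5, Zbtb16 and Cdkn1a. KO4 had the highest level of Tsc22d3, Klf9 and Sgk1 and was second to WT4 for Cebpd, Mt1 and Mt2, and it is not among the 7 mice compared. The part of these tissues in the results was not tested, and log2 fold changes without WT4 and KO5 are given with the alternatives. In bulk muscle, fewer cells of a type and less RNA per cell cannot be told apart.

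The receptor gene Nr3c1 (ENSMUSG00000024431, chromosome 18 from 39410545 to 39519421, minus strand) was counted at 126, 119, 80.6, 89.8 and 121 CPM in KO1 to KO5 and at 123, 121, 101 and 81.6 CPM in WT1 to WT4. The mice fell into 2 ranges. KO3, WT4, KO4 and WT3 lay between 80.6 and 101 CPM, and the other 5 mice between 119 and 126 CPM. Both ranges held mice of both genotypes. The mean was 109 CPM with an SD of 24.96 in the 3 Shank3Δ11(-/-) mice and 107 CPM with an SD of 19.5 in the 4 Shank3(+/+) mice. The log2 fold change between them was 0.027 (SE 0.18, 95% interval -0.37 to 0.42, edgeR FDR = 1.00, exact permutation p = 0.829).

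Fkbp5 (ENSMUSG00000024222, chromosome 17 from 28399094 to 28517527, minus strand), the co-chaperone of the feedback loop, was counted at 34.2, 23.4, 63.6, 48.7 and 18.1 CPM in KO1 to KO5. In WT1 to WT4 it had 29.4, 35.7, 57.2 and 70.5 CPM. WT4, KO3, WT3 and KO4 were the highest, KO5 was the lowest, and the genotypes overlapped. Between genotypes Fkbp5 had a log2 fold change of -0.33 (SE 0.47, 95% interval -1.43 to 0.77, edgeR FDR = 1.00, exact permutation p = 0.571). It was -0.36 in all 9 mice and 0.052 in the 9 mice without WT4 and KO5.

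Zbtb16 (ENSMUSG00000066687, chromosome 9 from 48654297 to 48836222, minus strand) encodes the zinc finger transcription factor PLZF. It was counted at 17.2, 8.69, 23.7, 19.6 and 5.96 CPM in KO1 to KO5 and at 10.7, 11.8, 25.5 and 40.3 CPM in WT1 to WT4. The highest mice were again WT4, WT3, KO3 and KO4 and the lowest KO5, so that the lowest and highest mouse differed 6.76-fold. Zbtb16 had a log2 fold change of -0.51 (SE 0.62, 95% interval -1.97 to 0.96, edgeR FDR = 1.00, exact permutation p = 0.514). It was -0.55 in all 9 mice and 0.11 in the 9 mice without WT4 and KO5.

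Cebpd (ENSMUSG00000071637, chromosome 16 from 15887286 to 15891031, plus strand) encodes a leucine zipper transcription factor of the C/EBP family. It was counted at 16.9, 9.71, 25.9, 27.1 and 14.5 CPM in KO1 to KO5 and at 13.4, 12.6, 23.8 and 30.05 CPM in WT1 to WT4. WT4, KO4, KO3 and WT3 were above the other 5 mice. Its exons overlap those of Spidr on the opposite strand, which had 4.76 to 12.5 CPM, with the same 4 mice the highest. Without a known strand setting, reads of the overlap cannot be assigned to either gene with certainty. The log2 fold change between genotypes was -0.074 (SE 0.33, 95% interval -0.82 to 0.67, edgeR FDR = 1.00, exact permutation p = 0.971).

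Tsc22d3 (ENSMUSG00000031431, chromosome X from 140539528 to 140600659, minus strand) encodes the leucine zipper protein GILZ, an anti-inflammatory effector of glucocorticoids. It was counted at 76.0, 59.6, 85.1, 93.3 and 67.0 CPM in KO1 to KO5 and at 57.7, 66.4, 81.9 and 80.1 CPM in WT1 to WT4. Its range was narrow, 1.62-fold, but KO4, KO3, WT3 and WT4 were again above all others. Its log2 fold change was 0.079 (SE 0.14, 95% interval -0.24 to 0.40, edgeR FDR = 1.00, exact permutation p = 0.600).

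Sgk1 (ENSMUSG00000019970, chromosome 10 from 21882184 to 21999903, plus strand), a kinase known for regulating ion transport, was counted at 46.2, 31.5, 62.1, 69.8 and 51.7 CPM in KO1 to KO5. In WT1 to WT4 it had 32.3, 32.1, 59.9 and 58.3 CPM. KO4, KO3, WT3 and WT4 were the highest once more, KO5 was next, and KO2, WT2 and WT1 were close together at the bottom. Sgk1 had a log2 fold change of 0.22 (SE 0.24, 95% interval -0.33 to 0.76, edgeR FDR = 1.00, exact permutation p = 0.371).

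Thus KO3, KO4, WT3 and WT4 were the 4 highest mice for 5 of the 10 genes and the 4 lowest for Nr3c1. In the whole table this order gave the 4 highest mice for 5.60% of the 21735 genes kept in the 9 mice and the 4 lowest for 5.19%. The order was read from these genes, so no test of it was made. It crosses the genotypes, and it also gathers the mice that carry the replicate numbers 3 and 4 in the labels. The sources do not say what the numbers stand for. The 4 mice differed in Xist, which was high in KO3, WT3 and WT4, and at 3.23 CPM in KO4. WT4 was the mouse with liver markers, while KO3, KO4 and WT3 had at most 0.263 CPM of them, and KO4 was the mouse with the highest cartilage, tendon and fibroblast sums. The tendon markers had a median r of 0.57 with Tsc22d3 and 0.58 with Cebpd, against 0.037 and 0.036 for all genes. Those of 10 immediate early genes, which respond within minutes to many stimuli, were 0.64 and 0.73. The part of connective tissue in this order was not tested.

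Klf9 (ENSMUSG00000033863, chromosome 19 from 23141226 to 23168134, plus strand), a Krüppel-like repressor induced by glucocorticoids and by thyroid hormone, behaved differently from these genes. It was counted at 58.5, 23.8, 51.4, 86.1 and 71.2 CPM in KO1 to KO5 and at 35.6, 46.7, 52.0 and 46.7 CPM in WT1 to WT4. Among the 7 mice compared, KO5 and KO1 were above all Shank3(+/+) mice and KO3 lay just below WT3. Klf9 had a mean of 60.4 CPM with an SD of 10.03 in the 3 Shank3Δ11(-/-) mice and of 45.3 CPM with an SD of 6.89 in the 4 Shank3(+/+) mice. The log2 fold change was 0.41 (SE 0.15, 95% interval 0.070 to 0.74), with p = 0.0224 and FDR = 1.00 in edgeR's quasi-likelihood test and p = 0.0857 in the 2-sided exact permutation test. With KO4, the highest mouse, and KO2, the lowest, the log2 fold change was 0.36 (95% interval -0.28 to 1.00, edgeR FDR = 1.00, exact permutation p = 0.532). Without KO5 it was 0.27 (edgeR FDR = 1.00).

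Cdkn1a (ENSMUSG00000023067, chromosome 17 from 29090976 to 29100727, plus strand), which encodes the cell cycle inhibitor p21, was counted at 307, 354, 325, 265 and 241 CPM in KO1 to KO5. In WT1 to WT4 it had 303, 337, 324 and 386 CPM. WT4 was the highest and KO5 the lowest, and the range was only 1.60-fold. The log2 fold change was -0.22 (SE 0.13, 95% interval -0.52 to 0.074, edgeR FDR = 1.00, exact permutation p = 0.229). A transcript model of unknown status, AC167363.2, overlaps its exons on the opposite strand at no more than 1.17 CPM.

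The metallothionein gene Mt1 (ENSMUSG00000031765, chromosome 8 from 94179082 to 94180327, plus strand) was counted at 29.4, 12.4, 34.5, 56.4 and 35.4 CPM in KO1 to KO5 and at 14.6, 23.7, 31.8 and 65.2 CPM in WT1 to WT4. Mt2 (ENSMUSG00000031762, chromosome 8 from 94172664 to 94173568, plus strand) had 18.1, 8.18, 28.1, 42.9 and 32.5 CPM in KO1 to KO5 and 12.9, 16.1, 19.6 and 46.8 CPM in WT1 to WT4. The mice had the same order for both genes, from WT4 and KO4 at the top through KO5, KO3, WT3, KO1, WT2 and WT1 to KO2. The lowest and highest mouse differed 5.28-fold for Mt1 and 5.72-fold for Mt2.

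Mt1 had a mean of 33.1 CPM with an SD of 3.23 in the 3 Shank3Δ11(-/-) mice compared and of 33.8 CPM with an SD of 22.1 in the 4 Shank3(+/+) mice. Its log2 fold change was -0.045 (SE 0.46, 95% interval -1.13 to 1.04, edgeR FDR = 1.00, exact permutation p = 0.686). The mean log2 CPM of Mt1, which the permutation test compares, was 0.18 higher in the 3 Shank3Δ11(-/-) mice. For Mt2 the log2 fold change was 0.13 (SE 0.46, 95% interval -0.96 to 1.21, edgeR FDR = 1.00, exact permutation p = 0.657). Of the mice left out one at a time, WT4 changed both values most. Without WT4 the log2 fold change of Mt1 was 0.50 (edgeR FDR = 1.00), KO1, KO3 and KO5 then being 29.4 to 35.4 CPM against 14.6 to 31.8 CPM. That of Mt2 was 0.69 (edgeR FDR = 1.00), with an unadjusted p below 0.05. The antisense transcript Gm45774 overlaps the exons of Mt2 and had 3.19 to 17.4 CPM, with WT4 and KO4 again the highest. Without a known strand setting, reads of this overlap cannot be divided between the transcripts with certainty. Mt1 and Mt2 are close paralogs, and the sources do not say how reads matching both were counted. Mt3, a relative known from the brain, had 1.25 to 3.19 CPM, and Mt4, known from stratified epithelia, was at or below 0.0650 CPM.

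**Figure D1:**
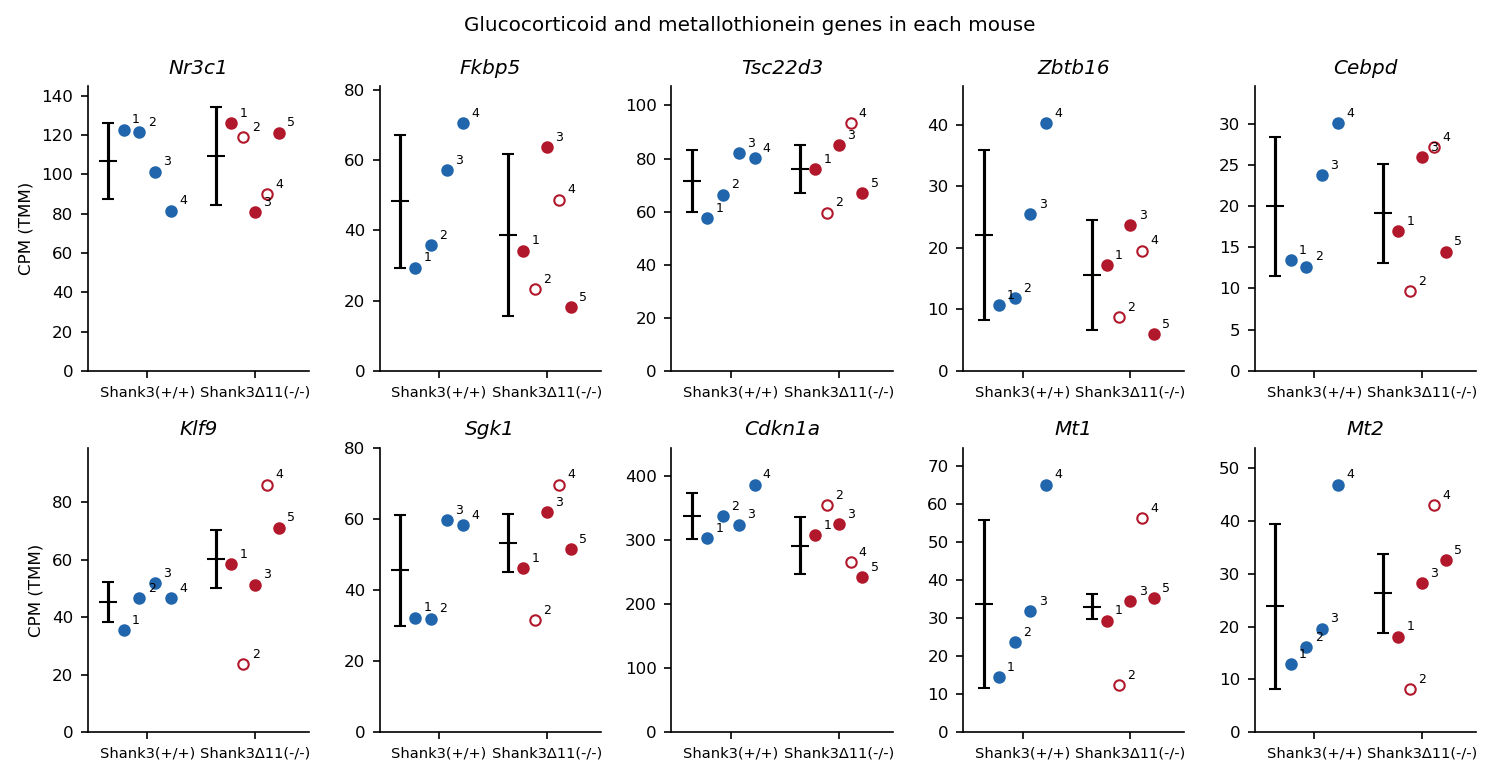
Level of each gene in each mouse in CPM (vertical axes from 0), Shank3(+/+) in blue and Shank3Δ11(-/-) in red, with the replicate number beside each point. Open points are KO2 and KO4, and the black bar to the left of each group is the mean ± SD of WT1 to WT4 or of KO1, KO3 and KO5. The genotypes overlap in all 10 panels, and mice 3 and 4 of both genotypes are the highest for Fkbp5, Tsc22d3, Zbtb16, Cebpd and Sgk1 and the lowest for Nr3c1.

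Over all 10 genes, 5 had a positive and 5 a negative log2 fold change, in the 7 mice as in the 9, while 47.8% and 50.5% of all genes were positive. A gene was called where its p was under 0.05 and its FDR under 25%. By this rule 0 of the 10 genes were called in edgeR, and 0% of the 21809 genes tested. At an unadjusted p below 0.05 edgeR gave 1 of the 10 genes, Klf9, against 2.08% of all genes. In no gene were the 3 Shank3Δ11(-/-) mice apart from the 4 Shank3(+/+) mice, which was the case for 2.84% of all genes. The median log2 fold change was -0.0091 for the 10 genes and -0.0081 for all genes. With all 9 mice, 0 of the 10 genes reached an unadjusted p below 0.05 in edgeR, against 2.03% of 21735 genes, and 0 were called, as were 0% of all genes. No gene of the 10 was without overlap in the 9 mice, as 0.686% of all genes were. DESeq2 and limma-voom also called 0 of the 10 genes, in 7 and in 9 mice. Of all genes DESeq2 called 0.0275% (6 genes) in 7 mice and 0.0322% (7 genes) in 9, and limma-voom 0%. In 7 mice both gave an unadjusted p below 0.05 for Klf9 alone, against 1.80% of all genes in DESeq2 and 1.95% in limma-voom. In 9 mice they gave it for 0 of the 10, against 2.03% and 1.97%. An edgeR fit blocked by replicate number also called 0 of the 10, against 0.0413% of all genes in 7 mice and 0.0092% in 9. It gave an unadjusted p below 0.05 for Mt1 and Mt2 in 7 mice, against 3.87% of all genes, and for 0 of the 10 in 9 mice, against 2.08%. The intervals were widest for Zbtb16, Mt2, Mt1 and Fkbp5, whose bounds leave room for a 2-fold difference in at least 1 direction.

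**Figure D2:**
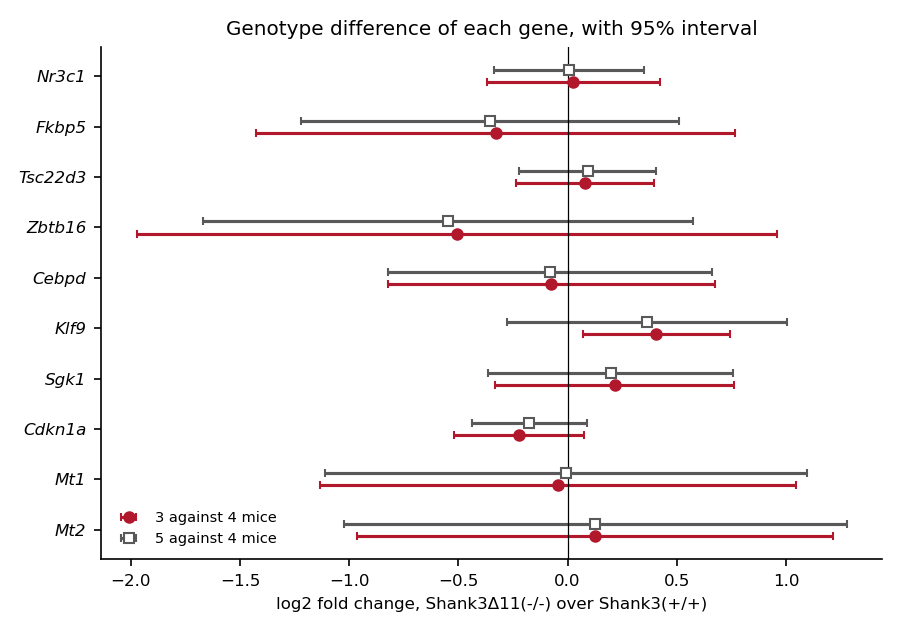
Log2 fold change of each gene, Shank3Δ11(-/-) over Shank3(+/+), with its 95% interval from the edgeR fit. Filled points compare 3 with 4 mice and open squares 5 with 4 mice, and only the interval of Klf9 in the 7 mice, 0.070 to 0.74, leaves out 0.

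The spread between mice was large for most of these genes compared with the rest of the transcriptome. The SD of log2 CPM over the 9 mice was 0.86 for Zbtb16, 0.83 for Mt2, 0.79 for Mt1 and 0.67 for Fkbp5, and a larger SD was found in 1.81%, 2.12%, 2.56% and 4.90% of genes. Cebpd (0.58), Klf9 (0.54) and Sgk1 (0.45) followed. Nr3c1 (0.27), Tsc22d3 (0.24) and Cdkn1a (0.21) had smaller SDs, exceeded by 41.7%, 48.4% and 58.4% of genes. Since the spread of log2 CPM depends on the level, each gene was also set beside the genes within 2-fold of its mean CPM. A larger SD was then found in 0.307% of 6192 genes for Mt2, 0.314% of 6046 genes for Zbtb16, 0.414% of 6045 genes for Mt1 and 0.596% of 5705 genes for Fkbp5. For Nr3c1 the SD was exceeded by 10.6% of 2975 genes, for Tsc22d3 by 16.7% of 4121 genes and for Cdkn1a by 28.3% of 759 genes. Of the 10 genes 6 were among the 10% with the largest SD, with WT4 and KO5 as well as without them, while 5 were in CPM without TMM and 4 in the 7 mice compared.

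Levels were compared between genes per kilobase of exon, as a mean over the 9 mice. Cdkn1a was the highest at 88.9 ± 12.3 CPM per kb (SD, n = 9), followed by Mt2 at 42.6 ± 22.9 and Mt1 at 27.0 ± 14.1 CPM per kb. Tsc22d3 (17.1 ± 2.80 CPM per kb), Nr3c1 (13.9 ± 2.45), Klf9 (10.9 ± 3.81) and Sgk1 (10.1 ± 2.97) lay in the middle. Cebpd (5.16 ± 1.98 CPM per kb), Fkbp5 (4.47 ± 1.95) and Zbtb16 (3.44 ± 2.02) were the lowest. Cdkn1a was above Mt2 and Mt2 above Mt1 in 9 of 9 mice, as was Sgk1 above Cebpd. The order of Mt2 and Mt1 rests on the exon lengths of the annotation, 588 bases for Mt2 and 1246 bases for Mt1, which for Mt1 is the whole span of the gene, and in CPM Mt1 was above Mt2 in 9 of 9 mice. Tsc22d3 was above Nr3c1 in 5 of 9 mice and Klf9 above Sgk1 in 5 of 9, so these neighbours did not differ beyond their spread. The ranges of every pair of neighbours overlapped between mice.

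Covariation was measured as Pearson's r and Spearman's rho of log2 CPM over the 9 mice, with 2-sided exact permutation tests over 362880 orders. For each gene the p-values were adjusted over the 21734 other genes of the table, and of the 2 adjusted values of a pair the larger is given. Of the 45 pairs 31 had a positive r. Of the 14 pairs with a negative r, 9 involved Nr3c1 and the other 5 Cdkn1a. An unadjusted p below 0.05 was found for 26 of the 45 pairs, 7 of them negative, while each of the 10 genes had such a p with 11.1% to 22.7% of all genes. In 0 of the 45 pairs was the adjusted p of r below 0.05. The mice were unevenly spread, the widest gap between neighbouring mice being 45.1% of the whole log2 range for Sgk1, 35.6% for Nr3c1 and 22.9% to 31.3% for the other genes. For Sgk1 the gap left 3 mice below and 6 above, for Nr3c1 4 and 5, and for Cebpd 5 and 4. Where a gap divides the mice, r rests in part on the difference between its sides, and r within sides of fewer than 6 mice is not given.

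Fkbp5 and Zbtb16 had r = 0.97 (exact permutation p = 4.68e-05, adjusted p = 0.0926) and rho = 0.97 (exact permutation p = 0.000165, adjusted p = 0.133). An r with Fkbp5 as high as that of Zbtb16 was found for 0.00920% of all genes. Without WT4 and KO5, the mice farthest from the median of Fkbp5, r was 0.94. After genotype and Xist were removed by regression, r was 0.96.

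Mt1 and Mt2 had r = 0.97 (exact permutation p = 5.51e-06, adjusted p = 0.0599) and rho = 1.00 (exact permutation p = 5.51e-06, the smallest value the 9 mice can give, adjusted p = 0.0299). Without KO2 and WT1, the mice farthest from the median, r was 0.94. After genotype and Xist were removed, r was 0.95.

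High values of r also joined Cebpd, Tsc22d3, Sgk1 and the metallothioneins, though none of these pairs with one another, other than Mt1 with Mt2, had an adjusted p below 0.1. Tsc22d3 and Sgk1 had r = 0.92 and rho = 0.93 (exact permutation p = 0.000570 and p = 0.000750, adjusted p = 0.165 and 0.144, r = 0.83 without WT1 and KO2). Cebpd and Sgk1 had r = 0.90 and rho = 0.88 (exact permutation p = 0.00145 and p = 0.00308, adjusted p = 0.108 and 0.139, r = 0.91 without WT4 and KO2). Cebpd and Mt1 had r = 0.87 and rho = 0.88 (exact permutation p = 0.00110 and p = 0.00308, adjusted p = 0.104 and 0.139, r = 0.72 without WT4 and KO2). With Fkbp5 and Zbtb16, Cebpd had lower values than with Sgk1 and Mt1. They were r = 0.86 and rho = 0.78 for Fkbp5 (exact permutation p = 0.00482 and p = 0.0172, adjusted p = 0.172 and 0.274). For Zbtb16 they were r = 0.86 and rho = 0.82 (exact permutation p = 0.00442 and p = 0.0108, adjusted p = 0.178 and 0.269). Without WT4 and KO5 these values of r were 0.93 and 0.95. Without KO4, r was 0.90 for Tsc22d3 and Sgk1, 0.89 for Cebpd and Sgk1 and 0.85 for Cebpd and Mt1. The pairs of Cebpd, Sgk1 and Mt1 link a transcription factor, a kinase and a metal binding protein, and for each of the genes KO4 and WT4 were among the 4 highest mice and KO2 among the 2 lowest.

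Nr3c1 ran against these genes. With Cebpd it had r = -0.87 and rho = -0.67 (exact permutation p = 0.00525 and p = 0.0589, adjusted p = 0.128 and 0.286, r = -0.81 without KO3 and WT4). With Fkbp5 it had r = -0.84 and rho = -0.70 (exact permutation p = 0.00654 and p = 0.0433, adjusted p = 0.181 and 0.319, r = -0.69 without KO3 and WT4). Without WT4 and KO5 these values were -0.82 and -0.84.

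Fkbp5 and Mt1 followed each other less closely, with r = 0.61 and rho = 0.55 (exact permutation p = 0.0843 and p = 0.133, adjusted p = 0.368 and 0.451). This value depended on single mice, being 0.47 without WT4 and 0.86 without KO5, which had little Fkbp5 and a level of Mt1 above the median. Fkbp5 and Klf9 had r = 0.21 and rho = 0.10 (exact permutation p = 0.586 and p = 0.810, adjusted p = 0.822 and 0.941), with KO5 again far apart, and r was 0.59 without KO5 and 0.70 without WT4 and KO5. Klf9 was closer to the metallothioneins. With Mt1 it had r = 0.77 and rho = 0.68 (exact permutation p = 0.0144 and p = 0.0503, adjusted p = 0.318 and 0.640), and r was 0.46 without KO2 and KO4, 0.95 without WT4 and 0.96 without WT4 and KO5. The 10 endothelium markers all had a positive r with Klf9, with a median of 0.67 against 0.033 for all genes, and all 10 had a positive log2 fold change in the 7 mice, with 0 at an unadjusted p below 0.05 in edgeR. Their summed level ran from 785 CPM in KO2 to 1122 CPM in KO4, the lowest and the highest mouse for Klf9, and the part of endothelium in the Klf9 levels was not tested. Klf9 and Cdkn1a had r = -0.66 and rho = -0.67 (exact permutation p = 0.0532 and p = 0.0589, adjusted p = 0.453 and 0.721, r = -0.56 without KO2 and KO4).

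**Figure D3:**
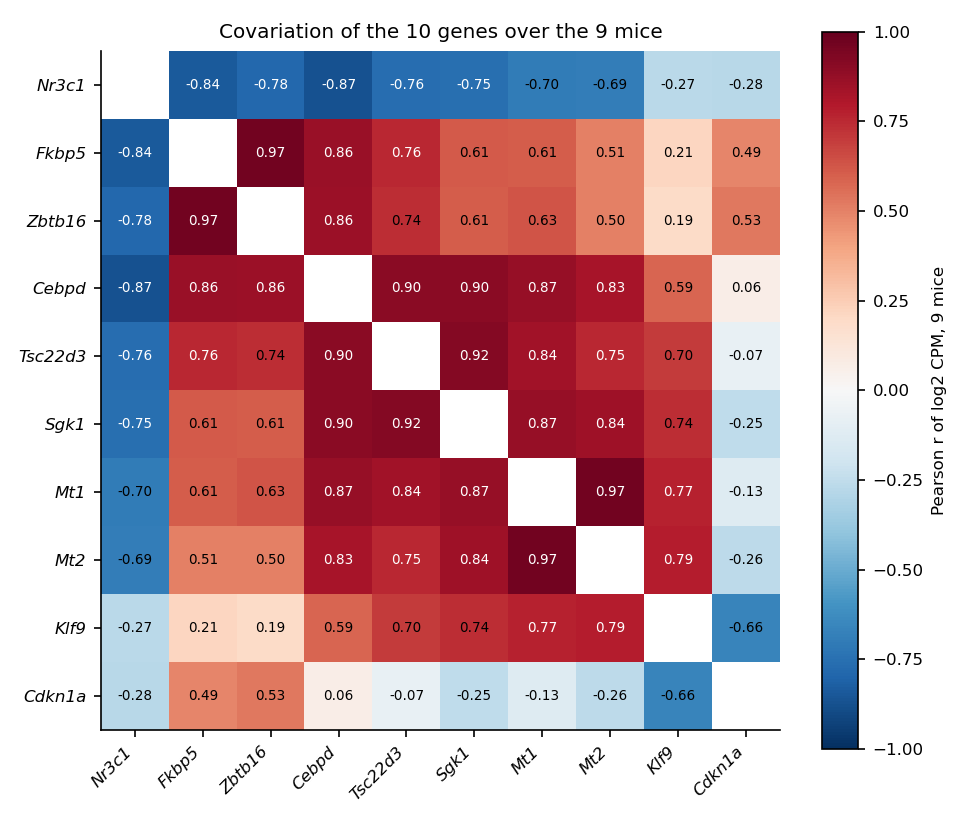
Pearson r of log2 CPM over the 9 mice for the 45 pairs of genes, red for positive and blue for negative values. Fkbp5 with Zbtb16 and Mt1 with Mt2 have the highest values, 0.97 each, and the 14 negative values are the 9 with Nr3c1 and 5 with Cdkn1a.

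**Figure D4:**
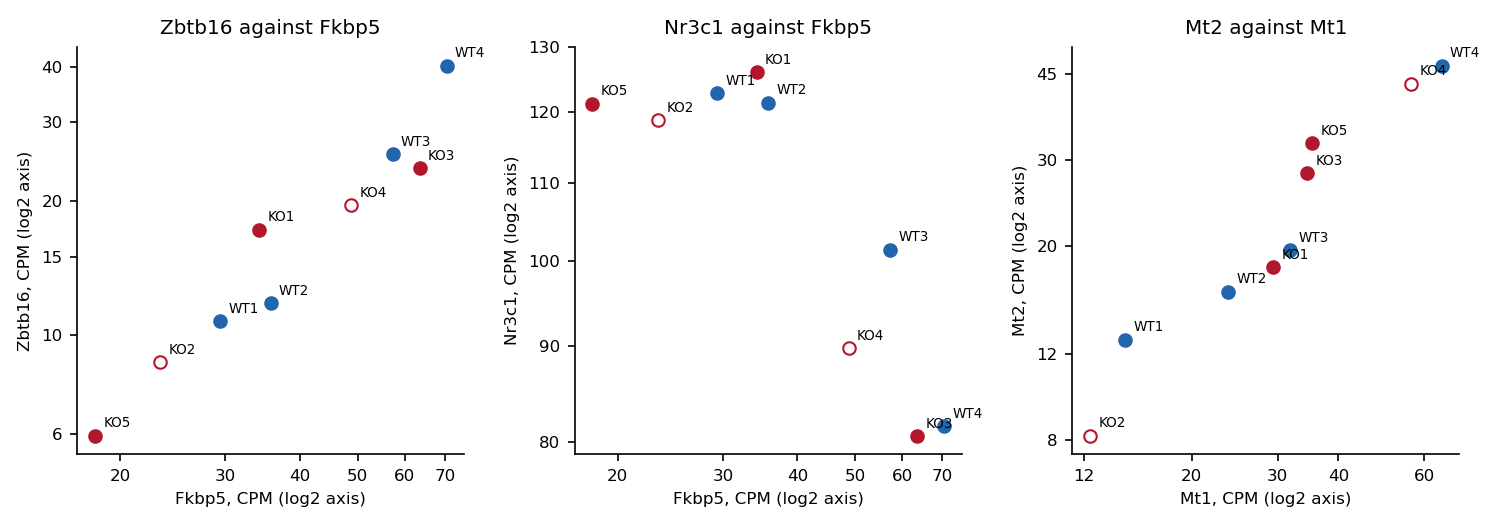
CPM in each mouse on log2 axes, Shank3(+/+) in blue, Shank3Δ11(-/-) in red and KO2 and KO4 as open points. Zbtb16 against Fkbp5 and Mt2 against Mt1 run along a line from the lowest to the highest mouse, while Nr3c1 against Fkbp5 falls into 4 mice with at most 101 CPM of Nr3c1 and 5 mice with at least 119 CPM.

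Beyond these genes, those most like Mt1 and most like Fkbp5 over the 9 mice were taken from the 17970 genes with a mean of at least 1 CPM. For Mt1 they were Siah1b (r = 0.97), a ubiquitin ligase, Blvrb (0.97), biliverdin reductase B, 2200002D01Rik (0.96), Stx8 (0.96), a syntaxin of endosomes, and Saraf (0.96), a regulator of store-operated calcium entry. The range of these genes was far smaller than that of Mt1, Saraf for instance running from 67.6 CPM in KO2 to 88.7 CPM in WT4. For Fkbp5 they were Dync2li1 (0.97), a dynein light intermediate chain of cilia, Wipf3 (0.97), an actin regulator, BB123696 (0.96), Snx21 (0.96), a sorting nexin, and Ankrd9 (0.96). Ankrd9 had 21.2 CPM in KO5 and 64.2 CPM in KO3, a range close to that of Fkbp5. These are descriptions, picked as the highest of many, and carry no test.

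The proteins that hold and modify the receptor, among them the HSP90 chaperones, their co-chaperones, coactivators and the enzymes that activate or inactivate the hormone, were read from a list of 30 genes. In the 7 mice 14 of them had a positive and 16 a negative log2 fold change, and the median was -0.0081, as for all genes. Ptges3, which encodes the co-chaperone p23, was the only gene with an unadjusted p below 0.05. It had 70.3, 82.0 and 95.1 CPM in KO1, KO3 and KO5 and 65.9, 76.8, 62.3 and 55.6 CPM in WT1 to WT4, a log2 fold change of 0.33 (SE 0.14, edgeR FDR = 1.00), with the genotypes overlapping. The summed level of the list was nearly flat over the 9 mice, from 4214 to 4435 CPM. Of this sum Hsp90ab1 alone had 1469 to 1784 CPM. Single genes varied more, such as Hsd11b2 from 4.33 to 12.2 CPM and Ptges3 from 55.6 to 98.8 CPM.

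Another 42 of 45 genes known to be induced by glucocorticoids could be tested. In the 7 mice 29 had a positive and 13 a negative log2 fold change, with a median of 0.095 against -0.0081 for all genes. Net1, a RhoA exchange factor, had the only unadjusted p below 0.05, with 162, 135 and 110 CPM in KO1, KO3 and KO5 and 175, 180, 161 and 162 CPM in WT1 to WT4 (log2 fold change -0.33, SE 0.13, edgeR FDR = 1.00). None of the 42 was called. The summed level ran from 3187 CPM in KO2 to 4628 CPM in WT4, and KO3, KO4, WT3 and WT4 again had the 4 highest sums. The sum was dominated by the cell cycle inhibitor gene Cdkn1c, which alone ran from 1449 CPM in KO2 to 2300 CPM in WT4 with the same 4 highest mice. These were the 4 highest mice for 12 of the 42 genes (28.6%), against 5.60% of all genes, and for 2 of the 10 immediate early genes (20%), Fos and Fosb. Chosen after their values were seen, the clock gene Per1, the transcription factor Klf15 and the glutamine synthetase gene Glul are examples. Per1 had 154 to 166 CPM in the 4 mice and 57.0 to 139 CPM in the others, Klf15 13.4 to 20.2 CPM against 4.06 to 7.11 CPM, and Glul 194 to 224 CPM against 102 to 132 CPM. The muscle atrophy genes Trim63 and Fbxo32 of the same list, also chosen after their values were seen, did not have this order, KO1 being the highest of all mice for both at 42.7 and 30.7 CPM. For Fbxo32 the same 4 mice came next after KO1, at 23.7 to 30.3 CPM, while for Trim63 KO2 was above KO3 and KO4. The list was written with earlier results of these data known.

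The zinc and metal handling genes, which include MTF1, the zinc transporters and the copper chaperones, gave 26 genes for the test. Of them 16 had a positive and 10 a negative log2 fold change in the 7 mice, the median was 0.0071, and edgeR gave 0 genes an unadjusted p under 0.05. Mtf1, the zinc sensor, had 23.7 to 28.6 CPM over the 9 mice. The zinc exporter gene Slc30a1, a known MTF1 target, had 12.05 to 18.2 CPM, with WT3, KO5 and WT4 the highest. The median r of the list with Mt1 was -0.14, against 0.028 for all genes. For the other glucocorticoid-induced genes the median r was 0.49 with Mt1 and 0.33 with Fkbp5, against 0.021 for all genes with Fkbp5. The mice are the same 9 throughout, so these medians describe shared variation and carry no test.

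Of 18 oxidative stress genes 14 were higher and 4 lower on the log2 scale in Shank3Δ11(-/-), with 0 at an unadjusted p under 0.05 in edgeR. Of 20 p53 targets, read because p53 is a main inducer of Cdkn1a, 12 were positive and 8 negative, and Gdf15 alone had such a p (log2 fold change 0.96, SE 0.42, edgeR FDR = 1.00) at no more than 0.472 CPM in any mouse. Of 10 immediate early genes 3 were positive and 7 negative, with 0 at an unadjusted p below 0.05 in edgeR. Their median r with Mt1 was 0.70, and their summed level was highest in KO4 (285 CPM) and WT4 (282 CPM), the mice highest in Mt1 and Mt2. The epidermis markers, all 11 of which had a positive r with Mt1, had a median r of 0.65, and their sum was highest in WT4 (107 CPM) and KO5 (70.8 CPM) and lowest in KO2 (19.5 CPM). All 11 also had a positive r with Tsc22d3, Zbtb16, Cebpd, Klf9, Sgk1 and Mt2, with medians from 0.20 (Zbtb16) to 0.72 (Mt2). The part of skin tissue in the Mt1 and Mt2 levels was not tested. The adipocyte markers had a median r of -0.63 with Fkbp5, and KO5, which had the highest sum, had the lowest Fkbp5.

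Xist, the transcript of the inactive X chromosome, ran from 619 to 925 CPM in WT4, KO5, WT3 and KO3, and the other 5 mice had at most 3.23 CPM. None of the 10 genes separated these sides without overlap, as 2.36% of all genes did. Within the side with high Xist, with 2 mice of each genotype, the difference in mean log2 CPM between Shank3Δ11(-/-) and Shank3(+/+) was -1.42 for Zbtb16, -0.90 for Fkbp5 and -0.38 for Mt1. Within the other side, with 3 against 2 mice, it was 0.34 for Zbtb16, 0.065 for Fkbp5 and 0.56 for Mt1. Klf9 had 0.30 and 0.27. With so few mice these values have no test. KO5 and WT4, both with markers of other tissues, are on the side with high Xist.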

How the data were processed

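The deposited counts are the authors' whole numbers of reads per Ensembl gene, without normalization. Per the study's methods and the submitters' processing notes, the authors mapped reads with HISAT2 to mm10 (GRCm38), kept concordant reads and counted them with featureCounts. Not given in the sources used here were the strand setting, the annotation and how multi-mapping reads were counted. Positions came from GENCODE M21. Genes were filtered with filterByExpr (minimum count 10, minimum total count 15), normalized by TMM and tested with the robust 2-sided quasi-likelihood test of edgeR 4.0.16 in R 4.3.3, with Benjamini-Hochberg adjustment over all genes tested. The replicates are separate mice. Log2 CPM used a prior count of 2. Exact permutation tests compared mean log2 CPM, with a smallest p of 0.0286 for 7 and 0.00794 for 9 mice. Alternatives were other mice, filters, normalizations, DESeq2 1.42.0, limma 3.58.1, Xist as a covariate, the replicate number as a block and each mouse left out. The edgeR fit and the correlations were tested on simulated data. Named genes were the 10 genes, of each gene list up to 3 per direction with p below 0.05 in the 7 mice, and the 5 genes most like Mt1 and Fkbp5. Other list genes, such as Mtf1, Slc30a1, Cdkn1c, Per1 and Fos, were named outside this rule, after their values were seen. Of the markers of other tissues, only those that a result turns on are named. The genes and the lists were chosen with earlier results of these data known.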

Additional observations from a re-analysis of the deposited data

How the results depend on the processing

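None of the 10 genes was called under any alternative run in the 7 or the 9 mice. Over all genes the count of calls was 0 in the reported fit, 1 with no filter on low counts, 6 with DESeq2, 1 with Xist as a covariate and 0 to 15 with each mouse left out. Of the other glucocorticoid-induced genes 1 had an unadjusted p below 0.05 as reported, 3 with no filter and 3 with DESeq2. There were 2 with DESeq2 size factors, 2 in the 9 mice without WT4 and KO5 and 0 to 7 with each mouse left out. Over all genes such a p was found for 2.08% as reported, 1.80% with DESeq2 and 972 of 37614 genes with no filter. In the 9 mice without WT4 and KO5 it was found for 342 of 21873 genes. The 7 list genes were found without KO3, where 794 of 22244 genes had such a p. The 0 was found without WT2, where 545 of 21531 genes had it. Same-numbered mice of the 2 genotypes had deviations that correlated at 0.37, 0.052, 0.36 and 0.10, and 5 of 8 mice correlated best with their own number, a hint of shared variation from the data and not from the design. Not every one of the 4 was above 0.1 and the labels do not say what the numbers mark, so they were not taken as pairs. Blocked by replicate number, the 7 mice gave other values: 9 genes and 0 of the 10 were called, 2 of the 10 (Mt1 and Mt2) and 5 of the other glucocorticoid-induced genes had an unadjusted p below 0.05, against 3.87% of all genes, and the log2 fold change reversed for Nr3c1 (-0.15), Fkbp5 (0.18), Zbtb16 (0.27), Cebpd (0.22), Cdkn1a (0.0080) and Mt1 (0.55, edgeR FDR = 1.00), while Klf9 had 0.34 (edgeR FDR = 1.00). Mt2 had 0.50 in the 7 mice with the block (edgeR FDR = 0.823), against 0.13 as reported. In the 9 mice the block did not give these values. There 2 genes and 0 of the 10 were called, and 0 of the 10 had an unadjusted p below 0.05. A positive log2 fold change was found for 3 of the 10, against 9 in the 7 mice. Mt1 had -0.0046, Mt2 -0.0042, Fkbp5 -0.19 and Zbtb16 -0.24 (edgeR FDR = 1.00). Other reversals were Mt1 with limma-voom (0.18) and, in the 9 mice without WT4 and KO5, Nr3c1 (-0.15), Fkbp5 (0.052), Zbtb16 (0.11), Cebpd (0.26) and Mt1 (0.50), while there Tsc22d3 had 0.19, Klf9 0.29, Sgk1 0.33, Cdkn1a -0.042 and Mt2 0.58. With each mouse left out in turn the log2 fold change ranged from -0.086 to 0.20 for Nr3c1, -0.89 to 0.0063 for Fkbp5, -0.93 (without KO3) to -0.034 (without WT4) for Zbtb16, -0.0099 to 0.16 for Tsc22d3, 0.079 (without WT2) to 0.38 (without WT3) for Sgk1, -0.31 (without KO3) to -0.11 (without KO5) for Cdkn1a, -0.36 to 0.20 for Cebpd, -0.29 to 0.50 for Mt1 and -0.076 to 0.69 for Mt2, the highest values of the last 3 being those without WT4. Klf9 no longer had an unadjusted p below 0.05 in edgeR without KO5 (log2 fold change 0.27), without WT1 (0.31) or with the block. The r of Fkbp5 and Klf9 was -0.33 in the 7 mice and ranged from -0.13 to 0.59 with each mouse left out. In CPM without TMM 1 pair, Mt1 and Mt2, had an adjusted p below 0.05 (0.0493, exact permutation test), against 0 pairs as reported. The causes of these differences were not tested. The alternatives without WT4 and KO5 together, the other tools and the block in 9 mice, and those of the gene lists and the spread were chosen after seeing the data. The limits are the 3 or 5 against 4 mice, the overlapping and paralogous transcripts, the unknown meaning of the replicate numbers, and other tissue in WT4, KO5, KO4 and KO1. Counting error was small beside the spread between mice, the lowest count of the 10 genes being 157.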
